A study of Rattus norvegicus with 12 samples.

Results

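The genes described here are 9 members of the type I interferon and JAK-STAT pathway: the ligand gene Ifnb1, the receptor chains Ifnar1 and Ifnar2, the kinases Jak1 and Jak2, the transcription factors Stat2 and Stat3, and the feedback inhibitors Socs1 and Socs3. They were chosen by symbol, with earlier results of these data known, and all 9 were found among the 18469 genes of the deposited tables. RNA-seq was performed on neonatal rat ventricular myocytes (NRVMs), heart muscle cells isolated from newborn Sprague-Dawley rats and kept in culture, with 12 libraries in 4 groups of 3 biological replicates. The siNeg group received a negative control siRNA and no further treatment, and the siSlc25a26 group received an siRNA named for Slc25a26, a mitochondrial carrier of S-adenosylmethionine. The siNeg.PE and siSlc25a26.PE groups were transfected in the same way and exposed to phenylephrine (PE), which drives hypertrophic growth of heart muscle cells through α-adrenergic receptors, for 36 h starting 12 h after transfection. All 4 groups were thus transfected with an siRNA, and untransfected cells were not analysed here.

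Type I interferons, among them interferon β, are secreted proteins that cells make after sensing foreign or misplaced nucleic acid. They bind a receptor of 2 chains, IFNAR1 and IFNAR2, to which the kinases TYK2 and JAK1 are attached. The kinases phosphorylate STAT proteins, and the complex ISGF3, which contains STAT2 and IRF9, binds interferon-stimulated response elements (ISREs) at antiviral genes. JAK2 and STAT3 serve several receptors, among them those of the interleukin 6 family, which share the chain gp130. The interleukin 6 family is well known for protective and growth signals in heart muscle. SOCS1 and SOCS3 are made in response to these signals and shut down the kinases and receptors. Heart muscle cells carry both arms of the pathway.

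For comparing a gene between groups, levels are given below as CPM, the usual per-library scaling of counts to a fixed total, with TMM factors set over the 12 libraries. FPKM, the authors' length-scaled values, is used for comparing genes with each other. A gene was called higher or lower where the fold change exceeded 1.5 and the adjusted p-value of edgeR's quasi-likelihood test (Benjamini-Hochberg over all genes tested) was under 0.05. Total counts per library lay between 24770972 and 28709049. The adjusted p-values weigh a group difference against the spread between the 3 samples of a group, which edgeR estimates with information from all genes tested. An exact two-sided permutation test of 3 libraries against 3 cannot go below 0.1 for a single gene.

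The targeted gene was examined first. Slc25a26 was at 29.3 to 33.2 CPM in siNeg and at 14.7 to 15.8 CPM in siSlc25a26 (log2 fold change -1.08, SE 0.0798, adjusted p = 1.08e-05 by edgeR). Under PE it was at 86.2 to 113 CPM in siNeg.PE and at 98.8 to 106 CPM in siSlc25a26.PE (log2 fold change -0.0062, adjusted p = 0.969 by edgeR). The target was therefore lower in the untreated libraries of that label and not detectably lower in the PE libraries, so the latter are named below as the libraries labelled siSlc25a26.PE. The study's methods name Nap1l5, a histone chaperone gene, as the siRNA target and give other times of transfection and PE, and the labels were followed here. Nap1l5 was at 2.54 to 4.72 CPM in siNeg and at 1.40 to 2.75 CPM in siSlc25a26 (log2 fold change -0.84, SE 0.286, adjusted p = 0.0397 by edgeR), groups that overlapped. Under PE it was at 13.5 to 19.4 CPM in siNeg.PE and at 6.76 to 8.78 CPM in siSlc25a26.PE (log2 fold change -1.05, SE 0.147, adjusted p = 0.000636), with no overlap. These values do not settle which gene the siRNA of these libraries targeted, and each siRNA comparison below is a comparison of labels. The 10 cardiomyocyte markers examined were all detected in every group. Their summed level was 25084 to 26652 CPM in siNeg, 21729 to 23875 CPM in siSlc25a26, 39420 to 45491 CPM in siNeg.PE and 53934 to 56300 CPM in the libraries labelled siSlc25a26.PE. Much of the rise of the sum with PE was Actc1, cardiac α-actin, whose mean went from 6470 to 19864 CPM in siNeg and from 5470 to 31669 CPM in siSlc25a26. Of the 10 markers, 4 were called higher and 0 lower with PE in siNeg (edgeR), beside 12.4% and 8.24% of all genes. In siSlc25a26, 4 were called higher and 1 lower with PE, beside 10.1% and 10.4% of all genes. Between the siRNAs, 0 were called higher and 2 lower without PE, beside 8.92% and 7.2% of all genes. Under PE 1 was called higher and 1 lower, beside 7.71% and 8.1%. In bulk RNA, fewer cells of a type and less RNA per cell cannot be told apart.

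In cells without PE, 4 of the 9 genes were called higher in siSlc25a26 than in siNeg (Ifnb1, Jak2, Stat2 and Socs1) and none was called lower, beside 8.92% of all 13829 genes called higher and 7.2% called lower. The groups did not overlap for any of the 9, beside 56.9% of all genes, and the median log2 fold change over the 9 was 0.56, beside 0.0145 over all genes. Stat2 rose 6.92-fold, Socs1 6.39-fold and Jak2 by 0.94 on the log2 scale, and Ifnb1 went from 1 count to 158 counts over 3 libraries. Ifnb1 passed the filter on low counts only through siSlc25a26. The receptor chains Ifnar1 and Ifnar2 differed by 0.097 and 0.41 on the log2 scale, under the fold limit. Under PE, 2 of the 8 genes tested (Stat2 and Socs1) were called higher in the libraries labelled siSlc25a26.PE than in siNeg.PE, beside 7.71% of all 13671 genes called higher and 8.1% called lower, and the groups did not overlap for 6 of the 8, beside 52% of all genes.

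**Figure D1:**
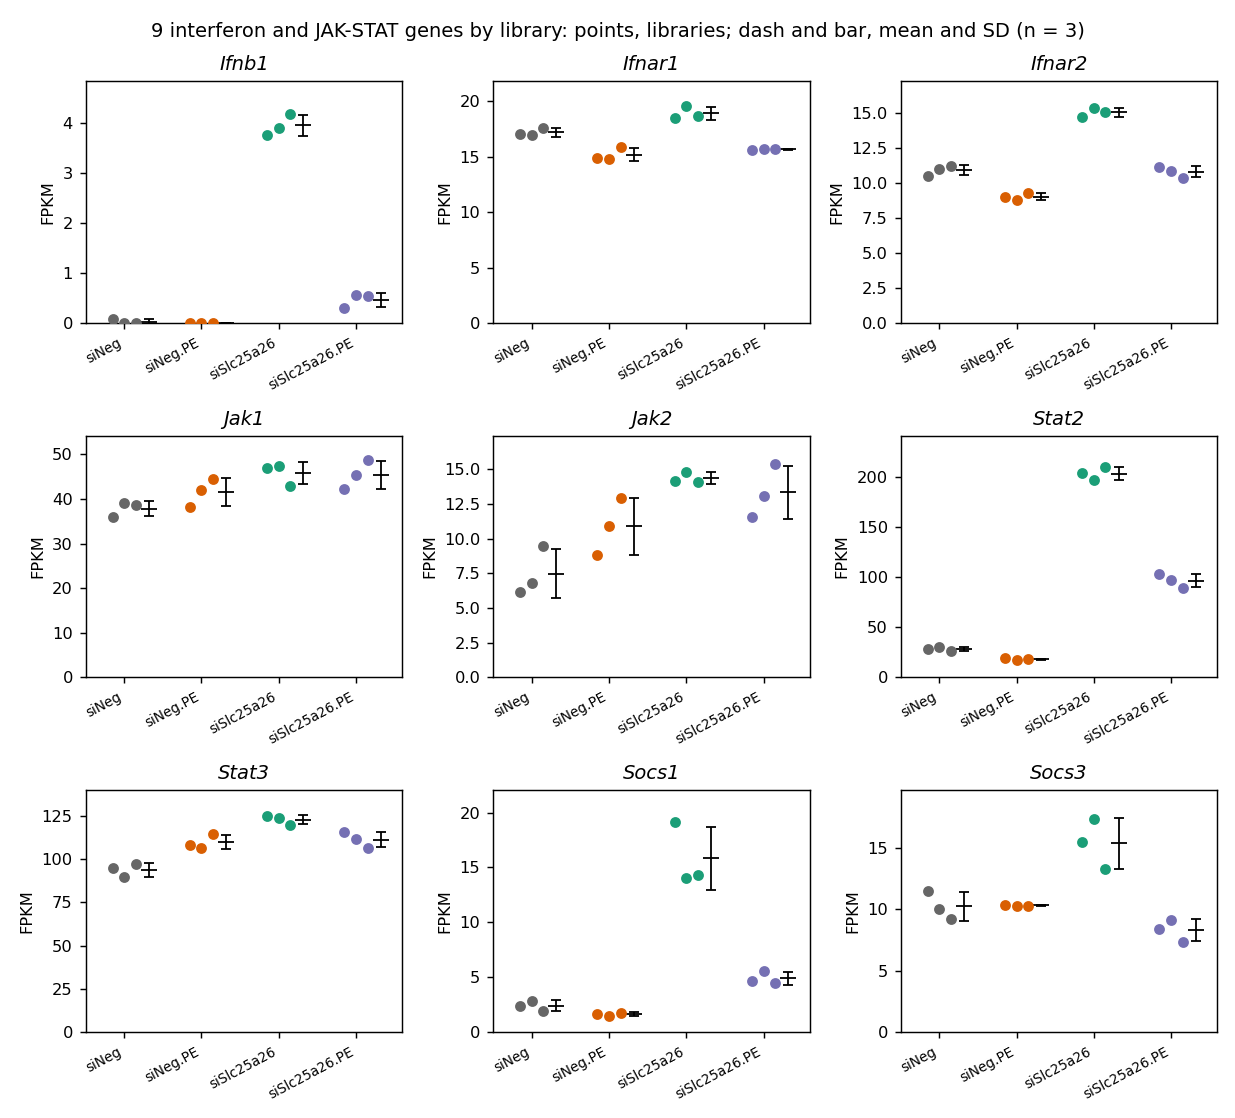
FPKM (vertical axes, each starting at 0) of the 9 genes in each of the 12 libraries, with points for libraries and a dash and bar for the mean and SD of 3 replicates. Ifnb1, Stat2 and Socs1 stand highest in siSlc25a26 and intermediate in siSlc25a26.PE, and Ifnar1, Jak1 and Stat3 lie within narrow ranges in all 4 groups.

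Ifnb1 (NCBI Gene 24481) encodes interferon β, the type I interferon that most cell types can make. Its counts were 1, 0 and 0 in the 3 siNeg libraries and 0, 0 and 0 in siNeg.PE. They were 50, 53 and 55 in siSlc25a26, and 4, 7 and 7 in the libraries labelled siSlc25a26.PE. Every library labelled with the Slc25a26 siRNA, with or without PE, held more Ifnb1 counts than any control library, and siSlc25a26 stood above siSlc25a26.PE. Without PE the ratio of depth-scaled counts was 145, with a 95% interval of 25.6 to 5750 that covers counting error only, and the gene was called higher (adjusted p = 1.36e-05 by edgeR). Its fitted log2 fold change rests on a single count in the control group and is not given. Under PE the gene was left out of the edgeR test by the filter on low counts. Its 18 counts against 0 stood 5.94-fold above a floor of 3 counts over the control group, a ratio that leaves out counting error. Within the siSlc25a26 cells, 158 counts without PE and 18 counts with PE gave a ratio of 7.62 (95% interval 4.67 to 13.2, counting error only). In both of these comparisons Ifnb1 entered the test through its level in siSlc25a26, so its calls there are a description. The corresponding PE effect in siNeg could not be measured at this depth, with 1 count before and 0 after.

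The upstream sequence of Ifnb1 is shown because it is the only ligand gene of the set that could be tested, and because several members have sequence matches for factors of this pathway. The 250 bases before the annotated start (RefSeq, assembly GRCr8, chr5:108067488-108067737, minus strand) are printed 5′ to 3′ along the gene, with capitals marking matches to the 8-letter core of interferon regulatory factor (IRF) sites, AANNGAAA, searched on both strands.
Ifnb1: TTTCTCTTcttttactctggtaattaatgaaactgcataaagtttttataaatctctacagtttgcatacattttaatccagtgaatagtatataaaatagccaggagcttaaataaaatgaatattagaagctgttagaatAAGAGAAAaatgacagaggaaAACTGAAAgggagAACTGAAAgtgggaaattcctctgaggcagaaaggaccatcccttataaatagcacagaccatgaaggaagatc
The 4 matches begin 250, 108, 87 and 74 bases before the start, the first of them on the opposite strand. An IRF core is common, being found in 23.3% of the 33469 promoter windows of the same length, and this search was added after the sequences had been seen. No ISRE core (GAAA, 2 bases of any kind, then GAAA) and no GAS element (TTCNNNGAA, the element of STAT dimers) was found in this window. The counts themselves were made on another build (Rnor_6.0), so these coordinates apply to GRCr8 alone.

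The other interferon genes of the list were near the limit of detection. Of 13 ligand symbols, 10 were in the tables, and Ifnb1 alone had enough counts to be tested. Ifna4 was at 23, 11 and 9 counts in siSlc25a26, at 1, 1 and 2 in siSlc25a26.PE and at 0 in all 6 control libraries. Its 43 counts without PE amount to a level 13.1-fold above the floor of 3 counts over siNeg, a ratio that leaves out counting error. Ifna11 was at 12, 5 and 10 counts in siSlc25a26, 8.24-fold above that floor by the same ratio, and at 0 in the other 9 libraries. Before rounding, the Ifna11 counts of 2 libraries were 12.5 and 9.69, and those of Ifna4 were whole. The interferon α genes are close copies of each other, and how the counting divided reads between them was not tested, so these counts are uncertain. All of these ligands were singled out after their values were seen.

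Ifnar1 (288264) encodes the low-affinity chain of the type I interferon receptor. It was at 72.3, 71.9 and 75.3 CPM in siNeg and at 77.5, 81.9 and 79.6 CPM in siSlc25a26. In siNeg.PE it was at 66.1, 64.2 and 67.8 CPM and in siSlc25a26.PE at 73.8, 73.7 and 72.7 CPM. The groups did not overlap in either siRNA comparison, but the log2 fold changes of 0.097 (SE 0.0479, adjusted p = 0.130 by edgeR) and 0.14 (SE 0.0591, adjusted p = 0.0838) did not pass the test. Ifnar1 was thus the member with the smallest difference between siSlc25a26 and siNeg without PE.

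Ifnar2 (686326) encodes the high-affinity chain, which carries JAK1. It was at 28.5, 30.1 and 31.0 CPM in siNeg and at 39.2, 41.0 and 41.4 CPM in siSlc25a26. Under PE it was at 26.2, 25.7 and 25.8 CPM in siNeg.PE and at 34.2, 32.9 and 31.0 CPM in siSlc25a26.PE. All libraries labelled with the Slc25a26 siRNA lay at or above the highest siNeg library. The log2 fold changes of 0.41 (SE 0.0617, adjusted p = 0.00076 by edgeR) without PE and 0.33 (SE 0.0688, adjusted p = 0.00537) under PE passed the p threshold and stayed under 1.5-fold. For Ifnar2, 11 of the 12 deposited counts were not whole numbers and for Jak1 all 12 were not, whereas the counts of the other 7 members were whole, so part of the reads of Ifnar2 and Jak1 was shared out by an estimate. Of the 6 interferon receptor chains listed, which include those for interferon γ and λ, none was called in either siRNA comparison or in either PE comparison. In these comparisons 7.2% to 12.4% of all genes were called in each direction. By the adjusted p alone (edgeR), 5 of the 6 chains were higher in siSlc25a26 than in siNeg and 0 lower, beside 45% of all genes in either direction. Under PE 4 were higher and 0 lower, beside 40.1%.

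Jak1 (84598), the kinase shared by interferon and gp130 receptors, was at 169, 183 and 182 CPM in siNeg and at 216, 218 and 200 CPM in siSlc25a26. In siNeg.PE it was at 190, 208 and 213 CPM and in siSlc25a26.PE at 222, 234 and 249 CPM. The siRNA groups did not overlap with or without PE, at log2 fold changes of 0.22 (SE 0.0542, adjusted p = 0.0102 by edgeR) and 0.20 (SE 0.0689, adjusted p = 0.0474), both under the fold limit. Jak1 was not among the promoter sequences used.

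Jak2 (24514), the kinase of growth hormone, erythropoietin, interferon γ and many gp130 receptors, spread more within groups. It was at 27.1, 31.7 and 41.6 CPM in siNeg and at 63.9, 66.0 and 65.7 CPM in siSlc25a26. In siNeg.PE it was at 41.7, 49.6 and 58.8 CPM and in siSlc25a26.PE at 58.7, 64.5 and 75.8 CPM. Without PE all siSlc25a26 libraries stood above all siNeg libraries, and the gene was called higher (log2 fold change 0.94, SE 0.127, adjusted p = 0.000448 by edgeR). Under PE the groups overlapped, and the log2 fold change of 0.40 (SE 0.131, adjusted p = 0.0377) was under the fold limit. Whether the siRNA difference itself changed with PE was tested in the fit of all 12 libraries, in which the difference of -0.56 (SE 0.210, adjusted p = 0.111 by edgeR) did not pass. Without replicate 3 of siNeg, the highest of its group, that difference was -0.74 and passed (adjusted p = 0.0209). Of the 4 Janus kinases, Jak2 was the one called, without PE.

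Stat2 (288774), the subunit of ISGF3 that carries its activation domain, had the smallest adjusted p of the members in both siRNA comparisons. It was at 98.6, 103 and 90.3 CPM in siNeg and at 686, 662 and 710 CPM in siSlc25a26, a 6.92-fold rise (log2 fold change 2.79, SE 0.0674, adjusted p = 4.33e-09 by edgeR). Under PE it was at 68.7, 63.1 and 63.5 CPM in siNeg.PE and at 390, 360 and 332 CPM in siSlc25a26.PE, a 5.50-fold rise (log2 fold change 2.46, SE 0.0776, adjusted p = 3.75e-08). The lowest library labelled with the Slc25a26 siRNA was thus more than 3 times as high as the highest siNeg library. In siNeg, Stat2 was below Stat3 and Jak1 in the order of FPKM among the 9 genes, and in siSlc25a26 it was above all of them, at 204 ± 6.48 FPKM (SD, n = 3) against 123 ± 2.71 for Stat3.

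Irf9, which encodes the DNA-binding partner of STAT2 in ISGF3, rose as well. It was at 26.2 ± 1.32 CPM (SD, n = 3) in siNeg and at 123 ± 3.12 CPM in siSlc25a26 (log2 fold change 2.20, SE 0.0588, adjusted p = 7.78e-09 by edgeR). Under PE it was at 20.4 ± 1.80 CPM in siNeg.PE and at 89.7 ± 7.26 CPM in siSlc25a26.PE (log2 fold change 2.13, SE 0.0933, adjusted p = 3.83e-07).

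Stat3 (25125), the factor of gp130 signalling, was the most abundant of the members in 3 of the 4 groups, at 94.0 ± 4.03 FPKM in siNeg, 110 ± 4.09 in siNeg.PE and 111 ± 4.49 in siSlc25a26.PE (SD, n = 3). It was at 405, 379 and 413 CPM in siNeg and at 518, 512 and 503 CPM in siSlc25a26. In siNeg.PE it was at 486, 474 and 494 CPM and in siSlc25a26.PE at 547, 519 and 492 CPM. Without PE the groups did not overlap, and the log2 fold change of 0.33 (SE 0.0479, adjusted p = 0.000639 by edgeR) was under 1.5-fold. Under PE they overlapped (log2 fold change 0.090, SE 0.0599, adjusted p = 0.268).

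Socs1 (252971) encodes the inhibitor that binds JAKs and the interferon receptor, and it is a known target of interferon signalling. It was at 2.57, 3.05 and 1.99 CPM in siNeg and at 19.997, 14.6 and 15.1 CPM in siSlc25a26, a 6.39-fold rise (log2 fold change 2.68, SE 0.184, adjusted p = 6.63e-06 by edgeR). Under PE it was at 1.87, 1.59 and 1.92 CPM in siNeg.PE and at 5.50, 6.48 and 5.18 CPM in siSlc25a26.PE, a 3.16-fold rise (log2 fold change 1.66, SE 0.160, adjusted p = 7.69e-05). The groups did not overlap in either comparison. On the FPKM scale Socs1 was eighth of the 9 genes in siNeg, at 2.37 ± 0.501 (SD, n = 3), and in siSlc25a26, at 15.8 ± 2.90, its libraries overlapped those of Ifnar1 and Socs3, its neighbours in the order.

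The upstream sequence of Socs1 is shown because it was the only member in whose window an ISRE core was found. The 250 bases before the annotated start (RefSeq, assembly GRCr8, chr10:5389324-5389573, plus strand) are printed 5′ to 3′, with capitals marking 2 overlapping ISRE cores.
Socs1: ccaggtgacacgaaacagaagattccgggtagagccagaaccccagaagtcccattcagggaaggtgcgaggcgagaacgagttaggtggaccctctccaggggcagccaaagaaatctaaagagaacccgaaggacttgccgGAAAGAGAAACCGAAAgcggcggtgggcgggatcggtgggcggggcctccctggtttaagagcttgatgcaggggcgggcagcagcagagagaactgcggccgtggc
The ISRE cores lie 107 to 98 and 101 to 92 bases before the start. Both contain an IRF core, as every ISRE core does by its letters. A GAS element lies 196 to 188 bases before the start. An ISRE core is found in 3.41% and a GAS element in 7.67% of the 33469 promoter windows. Of the 8 members with a promoter entry, Ifnar2 had a GAS element 249 to 241 bases before its start, and in the windows of Ifnar1, Jak2, Stat2, Stat3 and Socs3 none of the 3 motifs was found. For comparison, the window of Stat2 (chr7:1286840-1287089, plus strand), the member with the smallest adjusted p in both siRNA comparisons, carries no capitals.
Stat2: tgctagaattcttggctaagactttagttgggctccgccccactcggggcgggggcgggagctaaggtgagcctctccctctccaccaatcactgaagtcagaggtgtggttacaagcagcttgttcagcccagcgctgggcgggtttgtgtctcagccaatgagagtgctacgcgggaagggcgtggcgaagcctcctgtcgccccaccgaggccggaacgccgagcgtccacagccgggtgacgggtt
These matches describe letters in a window and are not evidence of binding.

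**Figure D2:**
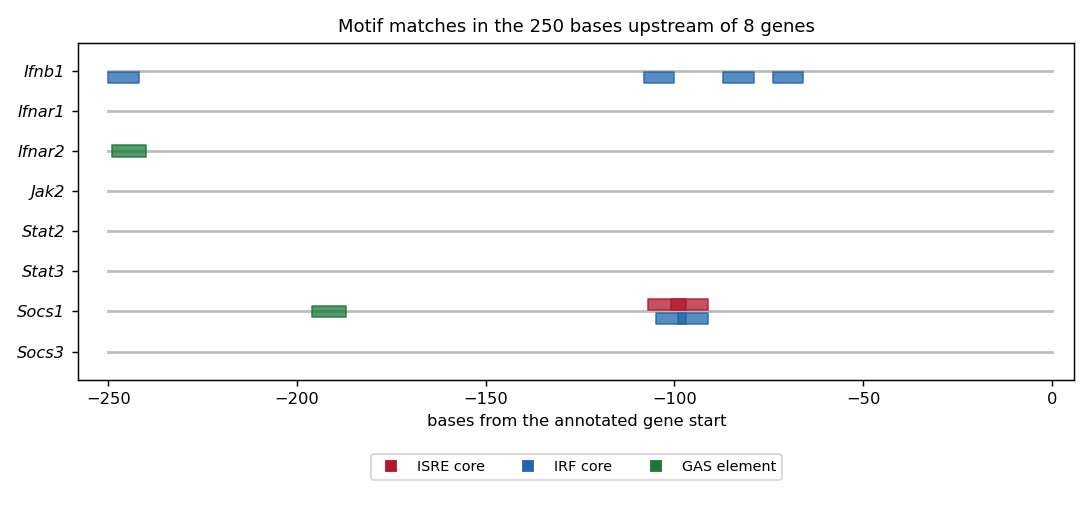
Positions of ISRE core, IRF core and GAS element matches in the 250 bases before the annotated start of 8 genes (horizontal axis, bases from the start; grey lines, the windows searched). Ifnb1 has 4 IRF cores, Socs1 has 2 overlapping ISRE cores with a GAS element further upstream, Ifnar2 has a GAS element, and the other 5 windows are empty.

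Socs3 (89829), the inhibitor that acts on gp130 receptors and is a known target of STAT3, was at 26.3, 24.0 and 22.2 CPM in siNeg and at 36.3, 40.8 and 31.6 CPM in siSlc25a26. In siNeg.PE it was at 26.4, 25.4 and 25.2 CPM and in siSlc25a26.PE at 22.5, 22.0 and 19.2 CPM. Without PE all siSlc25a26 libraries were above all siNeg libraries, and under PE all libraries labelled siSlc25a26.PE were below all siNeg.PE libraries. The log2 fold changes were 0.56 (SE 0.104, adjusted p = 0.00253 by edgeR) and -0.28 (SE 0.0822, adjusted p = 0.0226), neither past 1.5-fold. The first sat close to the limit, at 1.47-fold, and passed it without replicate 1 of siNeg (0.62) or without replicate 3 of siSlc25a26 (0.65).

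**Figure D3:**
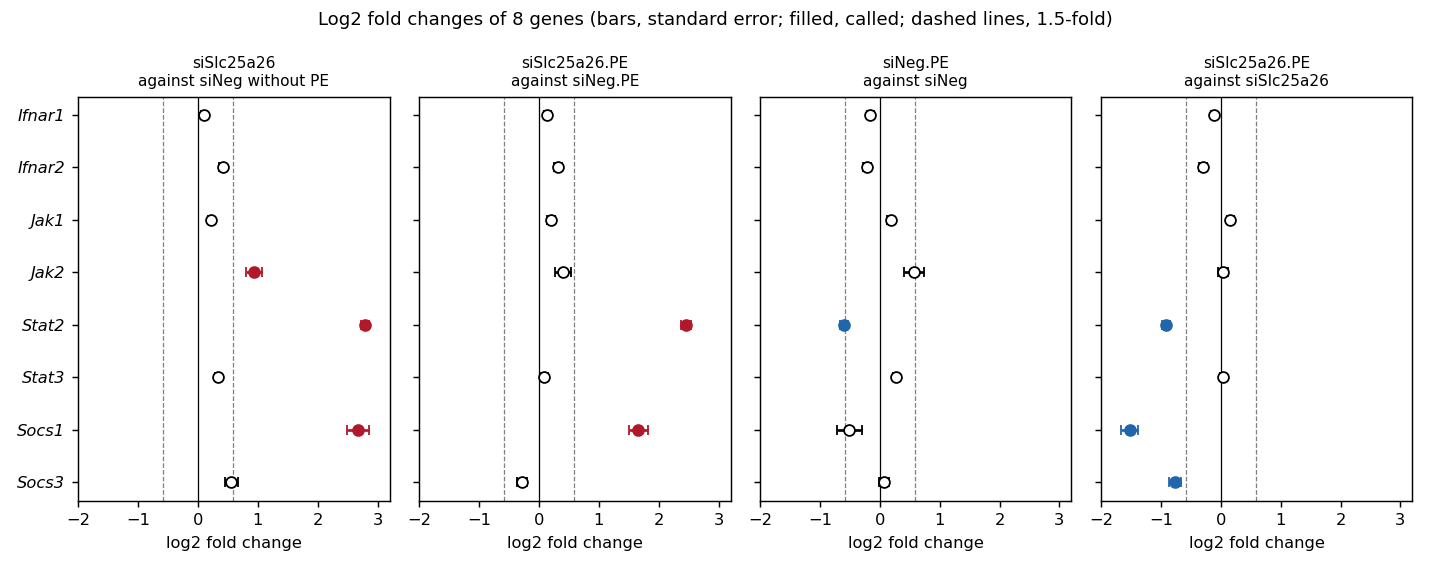
Log2 fold changes (horizontal axes) of 8 genes in 4 comparisons, with standard errors as bars, filled points for called genes and dashed lines at 1.5-fold; Ifnb1 is left out because its control counts are near 0. Stat2 and Socs1 lie far to the right in both siRNA comparisons, Jak2 passes without PE, and Stat2, Socs1 and Socs3 lie to the left for PE in siSlc25a26.

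Markers of other cell types moved between the groups as well. The summed level of 10 fibroblast markers was 21556 to 23713 CPM in siNeg and 12519 to 14048 CPM in siSlc25a26. Of the 10, 7 were called lower and 0 higher, beside 7.2% and 8.92% of all genes. Under PE the sum was 11725 to 12196 CPM in siNeg.PE against 8760 to 9533 CPM in siSlc25a26.PE. There 5 were called lower and 1 higher, beside 8.1% and 7.71% of all genes. Of 12 leukocyte markers, 10 were in the tables, and their sum was 111 to 133 CPM in siNeg, 60.2 to 69.8 in siSlc25a26, 61.1 to 70.3 in siNeg.PE and 42.3 to 50.1 in siSlc25a26.PE. Of 8 leukocyte markers tested without PE, 0 were called higher in siSlc25a26 and 5 lower, beside 8.92% and 7.2% of all genes. Which cells held the RNA of the members was not tested. Under PE, 0 of 7 leukocyte markers tested were called higher and 1 lower, beside 7.71% and 8.1% of all genes. Their median log2 fold change under PE was 0.035. In the sum under PE, Lyz2 had a mean of 46.6 CPM in siNeg.PE and 26.9 CPM in siSlc25a26.PE. The T cell marker Cd3e was at 0 in siNeg, siSlc25a26 and siSlc25a26.PE. The 8 endothelial markers summed to between 22.6 and 30.0 CPM in all 12 libraries, but single markers moved within that sum. With PE the mean of Kdr went from 12.1 to 5.77 CPM in siNeg and from 12.8 to 6.58 CPM in siSlc25a26. The mean of Tek went from 12.4 to 15.7 CPM in siNeg and from 11.9 to 19.5 CPM in siSlc25a26. The part of the fibroblast and leukocyte levels in the results given here was not tested.

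The other question of the design was how PE acted on these genes in each siRNA background. In siNeg cells, 1 of 8 genes was called, Stat2, which fell by 0.59 on the log2 scale (SE 0.0679, adjusted p = 0.000306 by edgeR), beside 8.24% of all 13719 genes called lower and 12.4% called higher. The groups did not overlap for 7 of the 8, beside 58.6% of all genes. Stat2 was just past the fold limit. Its fold change was under the limit without replicate 1 of siNeg (-0.57), replicate 2 of siNeg (-0.55), replicate 2 of siNeg.PE (-0.56) or replicate 3 of siNeg.PE (-0.58), with adjusted p-values of 0.00116 to 0.0036. The kinase Jak2 had a log2 fold change of 0.57 (SE 0.172, adjusted p = 0.0245), which passed the limit without replicate 3 of siNeg (0.75) or replicate 1 of siNeg.PE (0.70). Socs1 had -0.51 (SE 0.208, adjusted p = 0.0715), and -0.66 (adjusted p = 0.029) without replicate 3 of siNeg. Stat3 and Jak1 had 0.27 and 0.18 on the log2 scale, and Ifnar1 and Ifnar2 had -0.16 and -0.22. Socs3 was at nearly the same level in both groups, which overlapped (log2 fold change 0.074, SE 0.0808, adjusted p = 0.475).

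In siSlc25a26 cells, 4 of 9 genes were called lower with PE (Stat2, Socs1, Socs3 and Ifnb1, the last of which passed the filter only through siSlc25a26) and none higher, beside 10.4% of all 13776 genes called lower and 10.1% called higher. The groups did not overlap for 7 of the 9, beside 61% of all genes. Socs1 fell by 1.52 on the log2 scale (SE 0.146, adjusted p = 3.60e-05 by edgeR), Stat2 by 0.92 (SE 0.0628, adjusted p = 4.87e-06) and Socs3 by 0.76 (SE 0.102, adjusted p = 0.000284). With the level of siSlc25a26.PE at 5.72 CPM for Socs1 and 360 CPM for Stat2, both stayed above the siNeg level of 2.54 and 97.4 CPM. Socs3, at a mean of 21.2 CPM, was below the siNeg mean of 24.2 CPM, but these groups overlapped and were not tested against each other. The receptor chain Ifnar2 had a log2 fold change of -0.30 (SE 0.0623, adjusted p = 0.00344), under the fold limit. Jak1, Jak2 and Stat3 had log2 fold changes of 0.16, 0.035 and 0.032, none of them called, and all 3 were below 0 on the FPKM scale. These PE comparisons and the siRNA comparisons share the same groups, so their values are not independent of each other. By the adjusted p alone, with no limit on the fold, 8 of 9 members passed for siSlc25a26 against siNeg, beside 45% of all genes, and 6 of 8 passed under PE, beside 40.1%. For PE the counts were 6 of 8 in siNeg, beside 49.5% of all genes, and 6 of 9 in siSlc25a26, beside 52.4%.

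The difference between the PE effects was tested directly with an interaction term over all 12 libraries. For 2 of the 9 genes the PE effect was called lower in siSlc25a26 than in siNeg, beside 3.34% of all 14097 genes called in that direction and 2.16% in the other. For Socs1 the effects were -0.51 and -1.52, and their difference was -1.03 (SE 0.253, adjusted p = 0.0220 by edgeR). Without replicate 3 of siNeg.PE the Socs1 difference was -0.97 with an adjusted p of 0.0645, and limma-voom gave -1.04 with an adjusted p of 0.0523, so this call depended on 1 library and on the test. For Socs3 the effects were 0.074 and -0.76, and their difference was -0.86 (SE 0.138, adjusted p = 0.00233), which was called under every alternative run. For Stat2 and Stat3 the differences of -0.35 (adjusted p = 0.0373) and -0.26 (adjusted p = 0.0388) passed the p threshold alone, so that 4 of 9 members passed it, beside 11.2% of all genes. For Ifnb1 the difference was -1.04 (SE 1.76, adjusted p = 0.794), a value that rests on siNeg groups with 1 count and 0 counts.

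The members were also set among the rest of their pathway, using 9 lists with 71 symbols in all, of which 68 were in the tables. These lists too were chosen with earlier results of these data known. Without PE, 15 of the 55 listed genes that were tested were called higher in siSlc25a26 and 1 was called lower, beside 8.92% and 7.2% of all genes. Apart from the members the counts were 11 and 1 of 46. Under PE, 9 of 54 were called higher and 1 lower, or 7 and 1 of 46 apart from the members, beside 7.71% and 8.1% of all genes. Usp18, a protease that also binds IFNAR2 and blocks its signalling, had the largest value of all listed genes that were tested under both conditions. It was at 15.7 to 20.4 CPM in siNeg and at 556 to 588 CPM in siSlc25a26 (log2 fold change 4.95, SE 0.0953, adjusted p = 1.09e-09 by edgeR). Under PE the log2 fold change of Usp18 was 4.87 (SE 0.128, adjusted p = 1.21e-08). Among 10 inhibitors outside the SOCS family, Ptpn2, a phosphatase of JAK1 and STATs, was also called without PE (log2 fold change 0.66, and 0.54 and not called without replicate 1 of siNeg). Sh2b3, an adaptor that dampens JAK2, was called lower at -0.60, a call lost in 6 of 15 alternatives. Ptpn6 was called higher under PE at 0.86, a call lost in 9 of 15.

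Of the 8 SOCS family genes, 2 were called higher without PE, Socs1 and Cish (log2 fold change 0.79, SE 0.0888, adjusted p = 0.000153 by edgeR), and 2 under PE, Socs1 and Socs7 (0.67, not called on FPKM), beside 8.92% and 7.71% of all genes. With PE in siSlc25a26 cells 4 of the 8 fell, namely Socs1, Socs3, Cish (-0.75) and Socs6 (-1.11), beside 10.4% of all genes called lower. In siNeg cells 1 of the 8 was called lower, Socs6 (-0.68), beside 8.24% of all genes. Tested directly, the difference of the PE effects was called for 2 of the 8, Socs1 and Socs3, beside 3.34% of all genes called lower. Cish (-0.58, adjusted p = 0.0231 by edgeR) and Socs6 (-0.45, adjusted p = 0.0465) passed the adjusted p but not the fold limit, and Cish passed both in 9 of 20 alternatives.

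The interleukin 6 branch, which uses Jak1, Jak2, Stat3 and Socs3, gave a mixed pattern. Lif, a cytokine that signals through gp130, was called higher with and without PE (log2 fold changes 0.72 and 0.80). Osmr, the receptor chain of oncostatin M, was called higher as well (1.14 and 0.92). Lifr, the receptor chain of leukaemia inhibitory factor, was at 21.6 to 29.6 CPM in siNeg and at 38.2 to 40.9 CPM in siSlc25a26, but at 17.04 to 28.3 CPM in siNeg.PE and at 12.4 to 13.8 CPM in siSlc25a26.PE. Lifr was thus called in opposite directions, at 0.67 (adjusted p = 0.00131 by edgeR) without PE and -0.76 (adjusted p = 0.00552) under PE, and its PE effects differed by -1.45 (SE 0.223, adjusted p = 0.0019). The call without PE was lost without replicate 1 of siNeg (0.58) and the call under PE without replicate 3 of siNeg.PE (-0.57). Of 9 STAT3 target genes, 3 were called higher without PE, namely Bcl3 (0.92), Cebpd (0.80) and Junb (0.59, lost in 5 of 15 alternatives), and none was called in either direction under PE, where Bcl3, at 0.58, was just under the limit and was called in 5 of 15 alternatives. The background was 8.92% of all genes called higher without PE and 7.71% under PE.

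**Figure D4:**
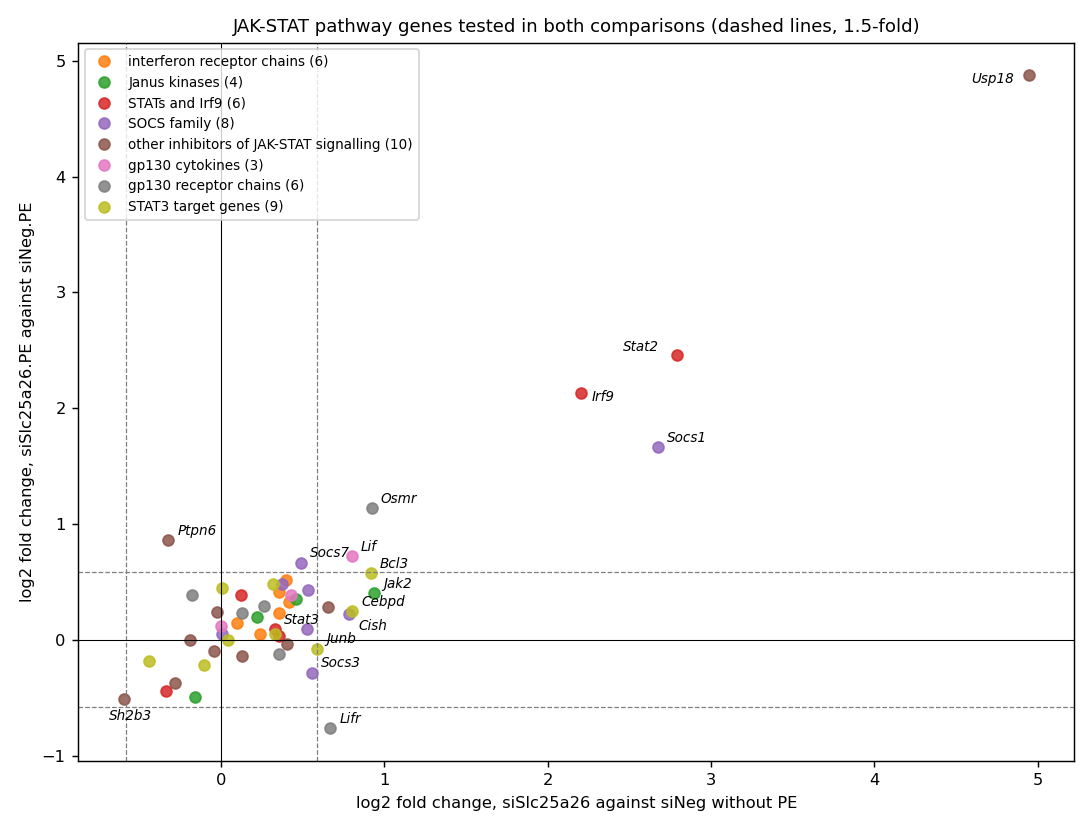
Log2 fold changes of listed pathway genes tested in both siRNA comparisons, without PE (horizontal axis) and under PE (vertical axis), coloured by list, with the number of genes in brackets and dashed lines at 1.5-fold. Usp18, Stat2, Irf9 and Socs1 lie far from the origin in both directions, most other genes lie within the dashed lines, and Lifr is past the limit in opposite directions.

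The order of levels among the 9 genes was compared on FPKM, the scale that allows for gene length. In siNeg it ran from Stat3 (94.0) through Jak1 (37.9), Stat2 (28.1), Ifnar1 (17.2), Ifnar2 (10.9), Socs3 (10.2), Jak2 (7.48) and Socs1 (2.37) to Ifnb1 (0.0267). Socs3 overlapped both of its neighbours, Ifnar2 and Jak2, and the other neighbours did not overlap. In siSlc25a26 the order ran from Stat2 (204) through Stat3 (123), Jak1 (45.8), Ifnar1 (18.9), Socs1 (15.8), Socs3 (15.4), Ifnar2 (15.04) and Jak2 (14.4) to Ifnb1 (3.95), and the neighbours from Ifnar1 to Jak2 overlapped. In siNeg.PE it was Stat3 (110), Jak1 (41.6), Stat2 (18.1), Ifnar1 (15.2), Jak2 (10.9), Socs3 (10.3), Ifnar2 (9.02), Socs1 (1.61) and Ifnb1 (0), with Jak2 and Socs3 overlapping. In siSlc25a26.PE it was Stat3 (111), Stat2 (96.8), Jak1 (45.4), Ifnar1 (15.7), Jak2 (13.3), Ifnar2 (10.8), Socs3 (8.30), Socs1 (4.88) and Ifnb1 (0.463), and no neighbours overlapped.

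The genes most like each member over the 12 libraries were found by Pearson's r of log2 CPM among 14096 genes, as a description with no test. Because the 12 libraries fall into 4 groups, r mostly reflects the 4 group levels. For Stat2 the likest included Parp10 (0.999) and Znfx1 (0.997), and 316 genes had r above 0.95. For Socs1 they were Daxx (0.989), Trafd1 (0.987) and Vcam1 (0.987), and for Ifnb1 Cyp27a1 (0.986), LOC100911527 (0.985) and Tnfsf10 (0.985). For Jak2 they were Dennd1b (0.995), Zfp317 (0.993) and Psme4 (0.989), and for Jak1 Mfn1 (0.98), Rbm27 (0.974) and Tgoln2 (0.972). For Ifnar2 they included Tgfbi (0.99) and Gnai2 (0.987), and for Ifnar1 they were Gpd1 (0.979), Pbx2 (0.979) and Bcl11a (0.976). Stat3 and Socs3 had fewer close partners, led by Acss2 (0.965), Llgl2 (0.959) and Bicd2 (0.948) for Stat3 and by Fam210b (0.946), Slc25a12 (0.933) and Nedd4l (0.932) for Socs3. Among the members themselves, r was 0.977 between Ifnb1 and Socs1, 0.969 between Stat2 and Socs1, 0.947 between Ifnb1 and Stat2 and 0.902 between Jak1 and Jak2, and it was lowest, at -0.107, between Jak1 and Socs3.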

How the data were processed

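RNA of NRVMs was sequenced in 12 libraries, and groups and replicate numbers were taken from the sample labels. The authors deposited estimated counts per gene, of which 20.8% to 21.9% of the values per library were not whole, and these were rounded. The authors also deposited FPKM values, scaled by gene length and library size. The submitters' processing notes name HISAT, Bowtie2 and the build Rnor_6.0, and the counting program, annotation and strandedness are not given in the sources used here. The planned design assumed plain counts. Differential expression used edgeR 4.0.16 in R 4.3.3 (TMM, filterByExpr, quasi-likelihood F-test) on the libraries of the groups compared, and on all 12 for the interaction. Thresholds were a fold change of 1.5 and an adjusted p-value of 0.05. Alternatives used limma 3.58.1, DESeq2 1.42.0, other filters and scalings, a replicate block and leaving out each library. Replicates of a group differed beyond counting noise. Ratios of low counts carry exact conditional binomial 95% intervals.

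The members and gene lists were chosen with earlier results of these data known. Named genes were all 9 members, up to 4 called genes per list with the largest siRNA difference, and the 3 genes most like each member. Others were singled out after their values were seen, namely Ifna4, Ifna11, other ligands, Il6, Stat5a, Socs6, Nap1l5, Actc1, Lyz2, Cd3e, Kdr and Tek. Of 18469 identifiers, 16962 (91.8%) matched the RefSeq table of GRCr8, and 8 of 9 members had a promoter entry. Some listed genes are not reported here. Procedures were tested on simulated data.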

Additional observations from a re-analysis of the deposited data

Results flagged for a closer look

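For 2 members the effect of PE differed between the siRNA backgrounds by a direct test (edgeR interaction term, adjusted p-values of 0.0220 and 0.00233). For Socs1 the difference of the PE effects, siSlc25a26 less siNeg, was -1.03 on the log2 scale, with all 3 libraries of siSlc25a26.PE below all 3 of siSlc25a26 and all 3 of siNeg.PE below all 3 of siNeg. This call was lost without siNeg.PE replicate 3 (-0.97, adjusted p = 0.0645) and by limma-voom (-1.04, adjusted p = 0.0523). For Socs3 it was -0.86, with a fall in siSlc25a26 and overlapping groups in siNeg. Slc25a26 itself was not detectably different between siNeg.PE and siSlc25a26.PE, and the part of the knockdown in these differences was not tested.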

How the results depend on the processing

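Of 687 recomputed values of single members, 660 kept their direction and their side of the threshold, 7 lost a call, 9 gained one and 11 changed sign, none of the 11 from a called value. Without a fold limit, 8 of 9 members passed without PE and 6 of 8 under PE, beside 45% and 40.1% of all genes. For PE, 6 of 8 passed in siNeg and 6 of 9 in siSlc25a26, beside 49.5% and 52.4%. For the difference of the PE effects 4 of 9 passed, beside 11.2%. With all 12 libraries in one fit, 0 members were called for PE in siNeg (Stat2 -0.58, adjusted p = 2.57e-05 by edgeR, just under 1.5-fold). Of all 14097 genes in that fit, 1835 were called higher and 1111 lower. Leaving out 1 library gave 4 to 5 members for siSlc25a26 against siNeg, 2 to 2 under PE, 0 to 3 for PE in siNeg, 4 to 4 for PE in siSlc25a26 and 1 to 3 for the difference. In the same order, 1935 to 2614, 1964 to 2174, 2398 to 3132, 2522 to 3139 and 521 to 951 of all genes were called. The values that changed sign were, for PE in siSlc25a26, Jak1 (-0.013 at both FPKM pseudocounts), Jak2 (-0.11 at both, and -0.077 without siSlc25a26.PE replicate 3 to 0.12 without replicate 1) and Stat3 (-0.14 at both, and -0.0028 without siSlc25a26.PE replicate 1 to 0.066 without replicate 3), and, for the difference of the PE effects, Ifnar1 (-0.086 and -0.090 on FPKM) and Jak1 (-0.089 without siNeg.PE replicate 1 to 0.0068 without replicate 3). FPKM values are scaled to library totals, and on them the median of all genes was -0.125 (pseudocount 1) and -0.171 (pseudocount 0.1) for PE in siSlc25a26, and the share of calls that were higher there was 27.4% and 27.1%, against 49.2% by edgeR; it was 64.8% and 63.9%, against 55.3%, for siSlc25a26 without PE, and 23.4% and 22.1%, against 39.3%, for the difference. The Ifnb1 difference of the PE effects was called by limma-voom (-2.43) and on FPKM (-1.72 and -2.60). It rests on 1 count in siNeg and 0 counts in siNeg.PE, and its size varied with the pseudocount. Those calls are therefore a description and cannot show that the PE effect differed. The filter of 10 counts in every library removed Ifnb1 from every comparison. Without a filter it was called under PE, on 18 counts against 0.

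Whether the replicate numbers pair the libraries was not settled, because differently numbered libraries were not compared. The correlations of same-numbered libraries' deviations ran from -0.0936 to 0.219, and 4 of 12 exceeded 0.1. Those 4 were replicates 1 and 3 in the comparisons that include siNeg.PE. With the replicate block, 4, 2, 1, 4 and 2 members were called in the 5 comparisons, the same counts as without it, and 2151, 2195, 2969, 2710 and 945 of all genes, against 2229, 2162, 2838, 2825 and 776. Depth limits chiefly Ifnb1 and the other ligand genes.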

Other observations

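Further ligand genes of the interferon family had a few counts in siSlc25a26 and 0 in all siNeg libraries: Ifna2 (8 counts over 3 libraries), Ifna16l1 (5), Ifnl1 (3), Ifnl3 (3) and Ifna1 (2). Totals of 3 counts or fewer are at or under the floor. Ifnl1 and Ifnl3 held the same deposited counts in every library (1, 1.5 and 0 in siSlc25a26), so they cannot be taken as separate observations. Ifne went the other way, at 3 counts over siNeg and 1 over siSlc25a26, and Ifna5 was at 0 in both groups. Il6, the founding cytokine of the gp130 family, was below the filter for testing, at 1 count over siNeg and 17 over siSlc25a26 (ratio 15.6, 95% interval 2.44 to 651, counting error only), and at 9 over siNeg.PE and 31 over siSlc25a26.PE (ratio 3.41, 1.58 to 8.14). Stat5a, a factor of growth hormone and prolactin signalling, was called lower with PE in both backgrounds (log2 fold changes -0.75 in siNeg and -1.07 in siSlc25a26, edgeR), and the difference of these PE effects, -0.33 (SE 0.135, adjusted p = 0.135 by edgeR), did not pass the test.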
